A study of Mus musculus with 7 samples.

Results

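Glycolysis splits glucose into pyruvate, the pentose phosphate pathway draws off glucose 6-phosphate for NADPH and ribose, and lactate dehydrogenase turns pyruvate into lactate, which leaves the cell through monocarboxylate transporters. Activated CD8 T cells are known for running glycolysis and lactate release at a high rate while they divide and make cytokines, under transcription factors such as MYC and HIF-1. A set of 35 genes for these steps, from the glucose transporters to transketolase, was read out of the 53656 gene rows of each deposited file by exact symbol, and all 35 were found. It was compared between OT1 CD8 T cells from tumours with and without SMARTA CD4 T cells.

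OT1 cells carry a transgenic T cell receptor for an ovalbumin peptide, and SMARTA cells are CD4 T cells whose transgenic receptor recognises the GP61 epitope. All OT1 cells were sorted on CD8 and CD45.1 from B16-OVA-GP61 tumours, a mouse melanoma line that carries both antigens, so the cells of both groups share 1 receptor and 1 tumour line. The group with SMARTA cells had 3 RNA-seq libraries and the group without them had 4. Mouse strain, age and the time of sorting are not given in the sources used here. The labels number the replicates but do not say that each came from a separate animal, so p-values measure the spread between these libraries, which may in part be technical.

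Libraries held 38092722 to 49438357 counts with SMARTA and 41341343 to 48572380 without SMARTA, and 3 counts, the limit that a count of 0 allows, came to 0.0607 to 0.0788 CPM (counts scaled to library size). This limit covers counting error only. Summed CD8 T cell markers (10 of 10 detected) ranged from 14304 to 18294 CPM with SMARTA and from 14323 to 17944 CPM without SMARTA. Among them Prf1 was lower with SMARTA without overlap (248 to 388 against 509 to 1234 CPM). Cd2 (1188 to 1590 against 836 to 1085 CPM) and Cd8b1 (1949 to 2358 against 1347 to 1927 CPM) were higher without overlap. The other CD8 T cell markers overlapped between the groups. Summed CD4 and regulatory T cell markers (6 of 6 detected) were 382 to 1130 CPM with SMARTA and 522 to 789 CPM without SMARTA. Of these, Cd40lg (88.1 to 101 against 26.2 to 68.1 CPM) and Zbtb7b (23.1 to 43.3 against 7.96 to 22.7 CPM) were higher with SMARTA without overlap. The others overlapped, Cd4 itself among them (2.05 to 8.09 against 0.659 to 7.31 CPM). Summed endothelial markers (6 of 6 detected) were 137 to 186 CPM with SMARTA and 82.5 to 118 CPM without SMARTA, without overlap. Of these only Pecam1 did not overlap (137 to 186 against 82.5 to 116 CPM). Summed NK cell markers (5 of 5 detected) were 48.7 to 127.3 CPM with SMARTA and 126.8 to 233 CPM without SMARTA. Of these only Klre1 did not overlap (13.2 to 35.4 against 68.6 to 186 CPM). Replicate 1 with SMARTA stood apart in erythroid markers (10 of 10 detected), which summed to 17.01 to 4831 CPM with SMARTA and 48.7 to 228 CPM without SMARTA. Replicate 2 without SMARTA stood apart in melanoma markers (8 of 8 detected), which summed to 6.94 to 9.26 CPM with SMARTA and 7.19 to 68.4 CPM without SMARTA. No marker of these lists was at 0 in all libraries, and their part in the results was not tested beyond the values given without these 2 libraries. In bulk samples, fewer cells of a type and less RNA per cell cannot be told apart.

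None of the 34 members tested passed an adjusted p of 0.05 in edgeR's quasi-likelihood test over 15896 genes, in which 3.15% of all genes were called (500 genes, with 1.63% lower and 1.52% higher with SMARTA). That total ranged from 17, without replicate 4 without SMARTA, to 907, without replicate 1 with SMARTA, when 1 library was left out. At an unadjusted p of 0.05, 8 members were lower and 1 was higher with SMARTA, together 26.5% of the members tested, against 18.6% of all genes (9.37% lower and 9.18% higher). The 8 lower ones were Hk2, Pfkfb4, Gapdh, Pgk1, Ldha, Slc16a3, Pdk3 and Tkt, and the higher one was Hk3. Without replicate 2 with SMARTA, 5 members were lower at this unadjusted p (Hk2, Pfkfb4, Pgam1, Pdk3 and Tkt), and without both libraries that stand apart 4 were (Hk2, Pfkfb4, Pdk3 and Tkt). The smallest adjusted p was that of Tkt, 0.0879. DESeq2 called 3 members, all lower with SMARTA (Hk2, Pfkfb4 and Tkt), among 1741 genes it called in all, and limma-voom called 0 members among 529. The median log2 fold change of the members tested was −0.10, against −0.0034 over all genes tested, and 20 of 34 were negative (58.8%, against 50.2% of all genes). With 1 library left out the members' median ranged from −0.23, with 24 negative, without replicate 3 with SMARTA to −0.055, with 17 negative, without replicate 2 with SMARTA. It was −0.17 without replicate 2 without SMARTA. For 14 members the 95% interval lay within a 2-fold difference either way (41.2%, against 24.6% of all genes), and for the other 20 it reached beyond that.

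In 8 members every library with SMARTA lay below every library without SMARTA, 23.5% of those tested, against 10.5% of all genes. These were Slc16a3, Hk2, Pfkfb4, Gapdh, Pkm, Ldha, Pdk3 and Tkt. In 2 members, Hk3 and Pdha1, every library with SMARTA lay above every library without SMARTA, where 8.73% of all genes did so. As a share of all counts, the 35 genes together made up 1.61, 1.83 and 2.15% of the libraries with SMARTA and 2.95, 2.61, 2.24 and 2.24% of those without SMARTA, with no overlap. On the TMM scale, which sets libraries level over the bulk of genes, the same sums were 16879, 18772 and 24132 CPM with SMARTA and 28278, 23434, 22082 and 21858 CPM without SMARTA, and the groups overlapped.

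**Figure D1:**
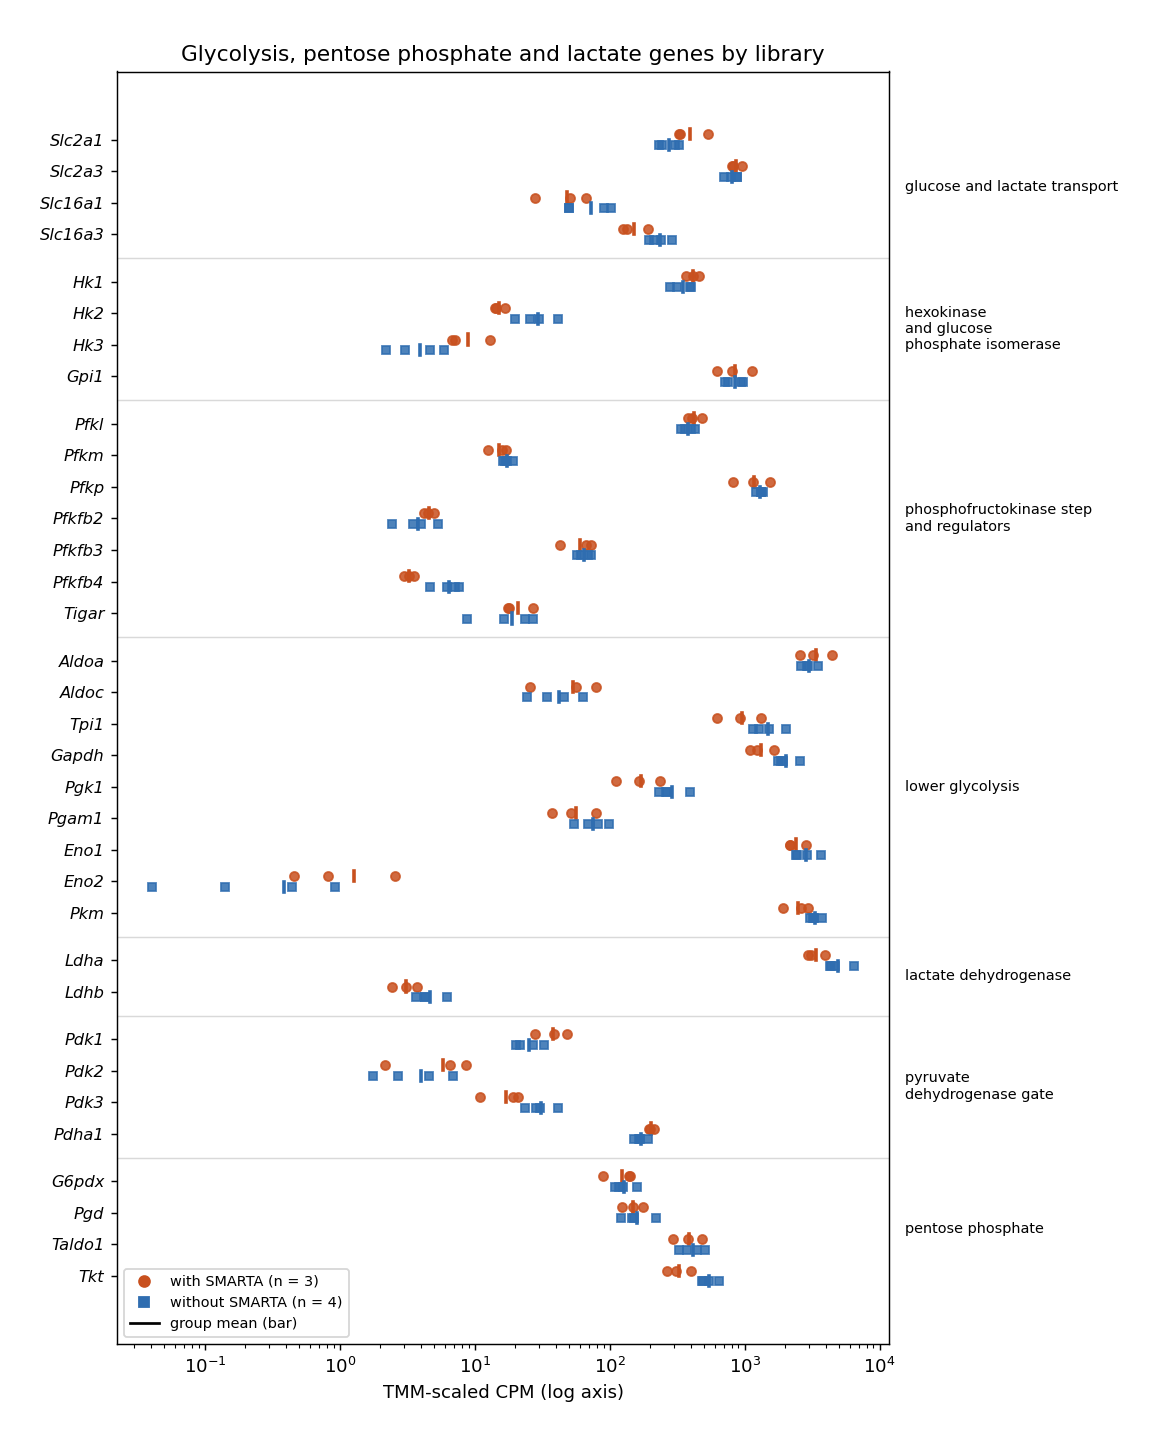
TMM-scaled CPM (log axis) of the 34 members tested, by library, in order of their place in the pathway; circles are the 3 libraries with SMARTA, squares the 4 without SMARTA, and bars the group means. Most members overlap between the groups, while the 8 members Slc16a3, Hk2, Pfkfb4, Gapdh, Pkm, Ldha, Pdk3 and Tkt lie lower and the 2 members Hk3 and Pdha1 higher in all libraries with SMARTA.

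**Figure D2:**
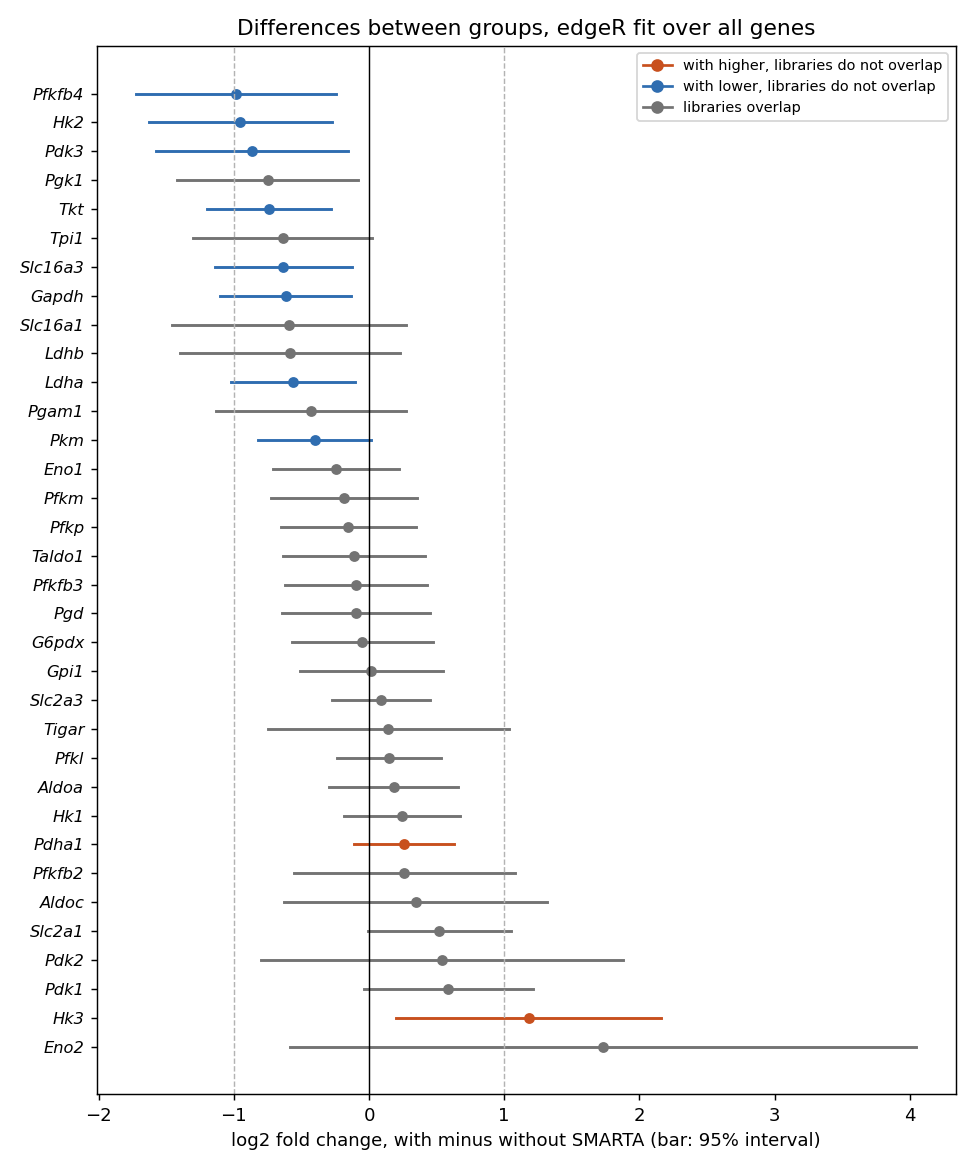
Log2 fold change, with minus without SMARTA, and its 95% interval for each member tested, with a solid vertical line at no difference, dashed lines at a 2-fold difference and colours by whether the libraries of the groups overlap. 20 estimates lie below 0 and 14 above it, and 9 intervals do not reach 0.

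Glucose enters T cells through GLUT1 and GLUT3. Slc2a1, which encodes GLUT1, the transporter that activated T cells place on their surface, was at 331, 325 and 532 CPM with SMARTA and at 304, 326, 244 and 232 CPM without SMARTA. Replicate 3 with SMARTA was the highest of the 7 libraries and the groups overlapped (log2 fold change 0.52 ± 0.23 (SE), 95% interval −0.0089 to 1.05, edgeR adjusted p = 0.279). Slc2a3 was at 801, 826 and 957 CPM with SMARTA and at 789, 706, 870.4 and 872 CPM without SMARTA, a spread of levels shared by both groups (log2 fold change 0.089 (95% interval −0.27 to 0.45, edgeR adjusted p = 0.827); its sign turned with scaling by plain library totals, which shifts the median of all genes by −0.16, and without replicate 3 with SMARTA). Per exon length both transporters were at like levels: Slc2a1 averaged 315 ± 84.7 TPM with SMARTA and 239.7 ± 46.3 TPM without SMARTA, and Slc2a3 averaged 332 ± 31.3 TPM with SMARTA and 338 ± 25.9 TPM without SMARTA (SD, n = 3 and 4). This likeness depends on the lengths used, 3506 bases for Slc2a1 and 7245 bases for Slc2a3, which take in all annotated exons.

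Lactate leaves through MCT4, encoded by Slc16a3, and moves in or out through MCT1, encoded by Slc16a1. Slc16a3 was at 126, 135 and 192 CPM with SMARTA and at 211, 241, 288 and 196 CPM without SMARTA. All 3 libraries with SMARTA were below the 4 without, replicate 3 with SMARTA by the least, and the difference did not pass the test (log2 fold change −0.63 ± 0.22 (SE), 95% interval −1.14 to −0.13, edgeR adjusted p = 0.172). Slc16a1 was at 51.1, 66.3 and 27.8 CPM with SMARTA and at 49.8, 49.9, 101 and 91.0 CPM without SMARTA. Replicate 3 with SMARTA was the lowest and replicates 3 and 4 without SMARTA the highest, with overlap between the others (log2 fold change −0.59 (95% interval −1.46 to 0.27, edgeR adjusted p = 0.466)). The MCT1 gene made up 14.8 to 37.2% of the summed per-length level of the pair in the 7 libraries, and MCT4 the rest.

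Hexokinases trap glucose in the cell as glucose 6-phosphate, and the 3 isozymes measured had log2 fold changes of both signs. Hk1, the widely expressed mitochondrial hexokinase, was at 458, 414 and 369 CPM with SMARTA and at 315, 281, 394 and 404 CPM without SMARTA, with overlapping groups (log2 fold change 0.25 (95% interval −0.18 to 0.68, edgeR adjusted p = 0.551)). Hk2, the inducible mitochondrial isozyme and a target of both MYC and HIF-1, was at 14.2, 16.7 and 14.5 CPM with SMARTA and at 25.5, 41.6, 19.7 and 30.2 CPM without SMARTA. The 3 libraries with SMARTA were close together and all below the lowest library without SMARTA. The mean was 1.94-fold lower with SMARTA (log2 fold change −0.95 ± 0.30 (SE), 95% interval −1.63 to −0.28, edgeR adjusted p = 0.128); DESeq2 gave an adjusted p of 0.0266. The highest Hk2 level was in replicate 2 without SMARTA, the library with the most melanoma transcript, and without that library the log2 fold change was −0.73 (edgeR adjusted p = 0.224).

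Hk3, the isozyme found mostly in myeloid cells, was at 13.0, 6.75 and 7.14 CPM with SMARTA and at 5.88, 4.70, 2.19 and 3.06 CPM without SMARTA. All libraries with SMARTA were above those without, replicate 1 with SMARTA most (log2 fold change 1.18 ± 0.43 (SE), 95% interval 0.20 to 2.16, edgeR adjusted p = 0.187). Summed macrophage and monocyte markers (11 of 11 detected, none at 0 in all libraries) were 199.5, 34.0 and 36.4 CPM with SMARTA and 148, 83.0, 185 and 111 CPM without SMARTA. Summed neutrophil markers (7 of 7 detected, none at 0 in all libraries) were 11.2, 7.36 and 7.30 CPM with SMARTA and 39.8, 37.5, 7.68 and 5.98 CPM without SMARTA. Levels of single markers differed within a library. In replicate 3 with SMARTA, Adgre1 and Fcgr1 were at 0 while Cd68 was at 17.4 CPM, Lyz2 at 9.40 CPM and Cd14 at 6.20 CPM. There Cd68 and Cd14 lay within the range without SMARTA (16.4 to 28.4 and 2.38 to 33.7 CPM) and Lyz2 below it (14.6 to 113 CPM). The neutrophil gene Retnlg was at 0 in all 3 libraries with SMARTA and in replicates 3 and 4 without SMARTA, while Mmp9 was at 5.25 to 9.06 CPM with SMARTA and at 2.18 to 7.55 CPM without SMARTA. The part of myeloid transcript in the Hk3 difference was not tested. Leaving out replicate 1 with SMARTA gave an Hk3 log2 fold change of 0.79 (edgeR adjusted p = 0.366).

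Within the hexokinases, Hk2 supplied 3.98, 5.27 and 5.08% with SMARTA and 9.98, 16.9, 6.597 and 9.50% without SMARTA of the summed TPM of Hk1, Hk2 and Hk3. The lowest share without SMARTA was above the highest share with SMARTA. Hk1 supplied 90.1, 91.3 and 90.8% with SMARTA and 86.3, 79.98, 92.2 and 88.9% without SMARTA, so it was the main isozyme in all 7 libraries. Gpi1, the isomerase that makes fructose 6-phosphate for the next step, was at 624, 805 and 1132 CPM with SMARTA and at 976, 935, 718 and 748 CPM without SMARTA. The libraries with SMARTA held both the lowest and the highest value (log2 fold change 0.016 (95% interval −0.51 to 0.54, edgeR adjusted p = 0.982); its sign turned under several alternatives, scaling by upper quartiles or by library totals among them).

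Phosphofructokinase commits sugar to glycolysis, and no difference in its subunit genes passed the test. Pfkp was at 822, 1153 and 1552 CPM with SMARTA and at 1379, 1314, 1319 and 1213 CPM without SMARTA, with replicate 1 with SMARTA the lowest and replicate 3 with SMARTA the highest (log2 fold change −0.15 (95% interval −0.65 to 0.34, edgeR adjusted p = 0.778)). The liver-type subunit, Pfkl, was at 377, 405 and 479 CPM with SMARTA and at 425, 399, 360.0 and 338 CPM without SMARTA (log2 fold change 0.14 (95% interval −0.24 to 0.53, edgeR adjusted p = 0.722); its sign turned with scaling by plain library totals). Pfkm was at 12.6, 17.1 and 15.96 CPM with SMARTA and at 19.1, 16.8, 16.1 and 17.2 CPM without SMARTA, the muscle-type subunit (log2 fold change −0.18 (95% interval −0.72 to 0.36, edgeR adjusted p = 0.752)). The CPM of the groups overlapped for all 3. As a share of their summed TPM, Pfkl supplied 46.5, 40.0 and 37.3% with SMARTA and 37.0, 36.7, 34.3 and 34.6% without SMARTA, with no overlap by a small margin, and Pfkp made up 50.4 to 62.6% across the 7 libraries.

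The PFKFB enzymes make or remove fructose 2,6-bisphosphate, the strongest activator of phosphofructokinase. Pfkfb4 was at 2.99, 3.23 and 3.53 CPM with SMARTA and at 7.15, 6.24, 4.63 and 7.70 CPM without SMARTA. The libraries with SMARTA lay in a narrow band below all 4 without SMARTA, a 1.98-fold lower mean (log2 fold change −0.99 ± 0.33 (SE), 95% interval −1.72 to −0.25, edgeR adjusted p = 0.146); DESeq2 gave an adjusted p of 0.0247. Pfkfb3, the more abundant member and the one with the greatest bias towards making the activator, was at 42.7, 66.8 and 72.7 CPM with SMARTA and at 57.6, 61.2, 68.6 and 72.3 CPM without SMARTA, with overlap (log2 fold change −0.096 (95% interval −0.62 to 0.43, edgeR adjusted p = 0.877)). Pfkfb2 was at 4.18, 4.53 and 4.97 CPM with SMARTA and at 2.45, 5.31, 3.50 and 3.97 CPM without SMARTA, also with overlap (log2 fold change 0.26 (95% interval −0.56 to 1.08, edgeR adjusted p = 0.768)).

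Pfkfb4 supplied 8.96, 6.54 and 6.57% with SMARTA and 15.6, 12.7, 9.05 and 13.5% without SMARTA of the summed TPM of the 3 PFKFB genes, so its share too did not overlap between the groups. Tigar, whose product removes the same activator and so favours the pentose phosphate branch, ranged from 17.7 to 27.0 CPM with SMARTA and from 8.81 to 27.0 CPM without SMARTA (log2 fold change 0.14 (95% interval −0.75 to 1.03, edgeR adjusted p = 0.893)). Fbp1, the gluconeogenic phosphatase that opposes phosphofructokinase, had 0, 3 and 6 counts with SMARTA and 1, 0, 8 and 9 counts without SMARTA, and was the 1 member left untested by the filter on low counts.

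**Figure D3:**
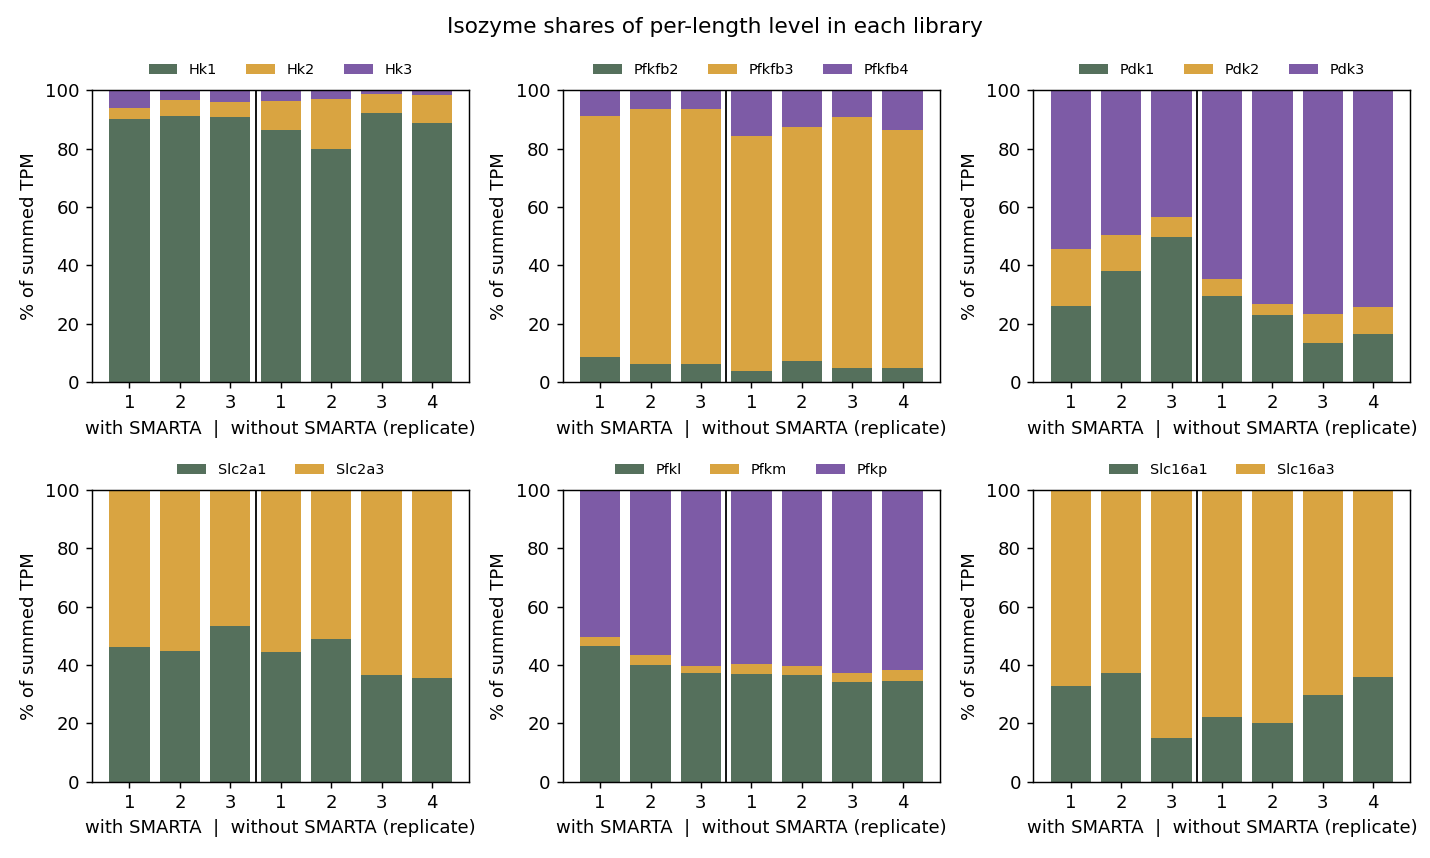
Share of the summed per-length level (TPM, in percent) that each isozyme supplies in each library, for hexokinases, PFKFB enzymes, pyruvate dehydrogenase kinases, glucose transporters, phosphofructokinase subunits and monocarboxylate transporters; libraries with SMARTA are left of the line. The shares of Hk2, Pfkfb4 and Pdk3 are lower, and that of Pfkl is higher, in all 3 libraries with SMARTA than in any without SMARTA.

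Aldolase follows phosphofructokinase. Aldoa, which splits fructose 1,6-bisphosphate and had the second highest per-length level of the members over all 7 libraries, was at 2585, 3207 and 4429 CPM with SMARTA and at 2968, 3507, 2903 and 2629.7 CPM without SMARTA. The groups overlapped and replicate 3 with SMARTA was the highest (log2 fold change 0.18 ± 0.21 (SE), 95% interval −0.29 to 0.66, edgeR adjusted p = 0.713). Aldoc was at 25.8, 55.9 and 78.8 CPM with SMARTA and at 46.2, 63.6, 24.4 and 34.3 CPM without SMARTA, a minor isozyme whose groups overlapped widely (log2 fold change 0.34 (95% interval −0.63 to 1.32, edgeR adjusted p = 0.739)). Aldoa averaged 3272 ± 867 TPM with SMARTA and 3137 ± 505 TPM without SMARTA (SD, n = 3 and 4) and supplied 98.4 to 99.3% of the TPM of the pair.

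The enzymes that act on the resulting triose phosphates had lower means with SMARTA. Gapdh, which yields NADH and 1,3-bisphosphoglycerate, was at 1087, 1241 and 1647 CPM with SMARTA and at 2593, 1852, 1915 and 1758 CPM without SMARTA. Its groups did not overlap and its mean was 1.53-fold lower with SMARTA (log2 fold change −0.62 ± 0.21 (SE), 95% interval −1.10 to −0.13, edgeR adjusted p = 0.165). Pgk1, which makes the first ATP of the pathway, was at 111, 166 and 236 CPM with SMARTA and at 392, 261, 231 and 267 CPM without SMARTA. Replicate 3 with SMARTA reached just above the lowest library without SMARTA (log2 fold change −0.75 ± 0.29 (SE), 95% interval −1.42 to −0.081, edgeR adjusted p = 0.216). Tpi1, the triose phosphate isomerase, ranged from 629 to 1314 CPM with SMARTA and from 1155 to 2018 CPM without SMARTA (log2 fold change −0.64 (95% interval −1.30 to 0.021, edgeR adjusted p = 0.286)).

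Further down, Pgam1, the phosphoglycerate mutase, ranged from 37.6 to 79.4 CPM with SMARTA and from 54.0 to 98.5 CPM without SMARTA (log2 fold change −0.43 (95% interval −1.13 to 0.27, edgeR adjusted p = 0.523)). Eno1, the ubiquitous enolase, was at 2167, 2168 and 2872 CPM with SMARTA and at 3658, 2875, 2400.2 and 2429.7 CPM without SMARTA, with overlap (log2 fold change −0.24 (95% interval −0.71 to 0.22, edgeR adjusted p = 0.598)). Eno2 was at 2.57, 0.458 and 0.823 CPM with SMARTA and at 0.142, 0.914, 0.0406 and 0.443 CPM without SMARTA. This neuronal enolase was at or near the counting limit in replicates 1 and 3 without SMARTA, and its interval was the widest of all members (log2 fold change 1.73 (95% interval −0.58 to 4.05, edgeR adjusted p = 0.422)). Eno1 supplied over 99% of the TPM of the pair in every library. Pkm, pyruvate kinase of muscle and most dividing cells, was at 1936, 2628 and 2953 CPM with SMARTA and at 3728, 3261, 3209 and 3028 CPM without SMARTA. Its groups did not overlap, by a small margin at replicate 3 with SMARTA (log2 fold change −0.40 ± 0.18 (SE), 95% interval −0.82 to 0.017, edgeR adjusted p = 0.291), and counts per gene cannot separate its M1 and M2 splice forms.

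Set against the mean of the libraries without SMARTA, replicate 1 with SMARTA had the lowest level of the 3 with SMARTA at each of Gpi1, Pfkp, Aldoa, Tpi1, Gapdh, Pgk1 and Pkm, among them Pgk1 at 38.7% and Tpi1 at 42.2%. Replicate 3 with SMARTA had the highest, with Aldoa at 148%, Gpi1 at 134% and Pfkp at 119%. Even there Gapdh stood at 81.2%, Pgk1 at 82.1% and Ldha at 80.1%. Among the libraries without SMARTA, replicate 1 was the highest at Tpi1, Gapdh, Pgk1, Eno1 and Ldha, between 127.8 and 136.3% of their mean. In replicate 1 with SMARTA erythroid markers took 4831 CPM; without that library and replicate 2 without SMARTA together, a choice made after seeing the data, Tkt was called (adjusted p = 0.0358) and no other member was.

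**Figure D4:**
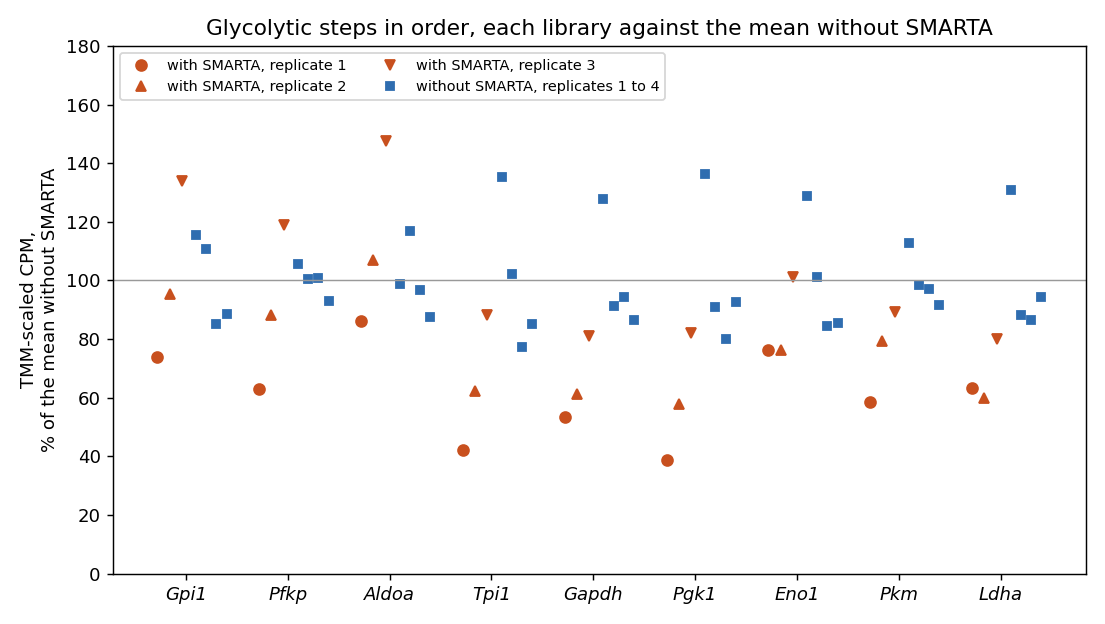
Level of 9 glycolytic genes in pathway order in each library, as a percentage of the mean of the 4 libraries without SMARTA; circles, upward and downward triangles are replicates 1, 2 and 3 with SMARTA, squares the libraries without SMARTA, and the horizontal line is 100%. The libraries with SMARTA lie on both sides of 100% at Gpi1, Pfkp and Aldoa, and from Tpi1 to Ldha replicate 3 with SMARTA is the highest of the 3 but stays under 100% at Tpi1, Gapdh, Pgk1, Pkm and Ldha.

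Ldha, the lactate dehydrogenase subunit that favours lactate formation, had the highest per-length level of all members over the 7 libraries, averaging 2823 ± 369 TPM with SMARTA and 4514 ± 831 TPM without SMARTA (SD, n = 3 and 4). In the libraries with SMARTA alone its mean was below that of Aldoa. Ldha was at 3124, 2967 and 3959.7 CPM with SMARTA and at 6473, 4355, 4276 and 4670.2 CPM without SMARTA. The highest library with SMARTA stayed below the lowest without SMARTA, and the mean was 1.48-fold lower with SMARTA, short of the test's threshold (log2 fold change −0.56 ± 0.20 (SE), 95% interval −1.02 to −0.10, edgeR adjusted p = 0.182). Ldhb, the subunit that favours pyruvate formation, was at 3.73, 2.43 and 3.09 CPM with SMARTA and at 4.25, 4.26, 6.28 and 3.69 CPM without SMARTA, with overlap only through replicate 1 with SMARTA and replicate 4 without (log2 fold change −0.58 (95% interval −1.39 to 0.23, edgeR adjusted p = 0.445)). Ldha supplied 99.7 to 99.9% of their summed TPM in the 7 libraries.

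Pyruvate dehydrogenase carries pyruvate into the mitochondrial cycle, and its kinases switch it off. Pdk3 was at 19.2, 20.8 and 11.03 CPM with SMARTA and at 23.7, 28.4, 41.6 and 30.3 CPM without SMARTA. This kinase gene lay below all libraries without SMARTA in each library with SMARTA, lowest in replicate 3 (log2 fold change −0.86 ± 0.31 (SE), 95% interval −1.57 to −0.15, edgeR adjusted p = 0.184). Pdk1, a HIF-1 target, was at 27.8, 48.5 and 38.4 CPM with SMARTA and at 32.6, 27.1, 21.7 and 20.4 CPM without SMARTA. Replicate 1 with SMARTA lay within the range without SMARTA (log2 fold change 0.59 ± 0.28 (SE), 95% interval −0.040 to 1.21, edgeR adjusted p = 0.303). Pdk2 was at 8.65, 6.53 and 2.18 CPM with SMARTA and at 2.69, 1.76, 6.85 and 4.60 CPM without SMARTA, with wide overlap (log2 fold change 0.54 (95% interval −0.80 to 1.88, edgeR adjusted p = 0.695)).

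The kinase genes thus differed in sign within the trio. Pdk3 supplied 54.4, 49.5 and 43.4% with SMARTA and 64.7, 73.3, 76.6 and 74.4% without SMARTA of their summed TPM, with no overlap, and Pdk1 supplied 25.8, 37.9 and 49.7% with SMARTA and 29.3, 23.0, 13.2 and 16.5% without SMARTA, with overlap. Pdha1, the catalytic subunit that these kinases phosphorylate, was at 197, 215 and 196 CPM with SMARTA and at 151, 168, 165 and 193 CPM without SMARTA. The libraries with SMARTA were all higher, by a small margin over replicate 4 without (log2 fold change 0.26 (95% interval −0.11 to 0.63, edgeR adjusted p = 0.459)).

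In the pentose phosphate pathway, transketolase was the gene whose groups did not overlap. Tkt, which shuttles carbon units between sugar phosphates and links the pathway back to glycolysis, was at 399, 267 and 308 CPM with SMARTA and at 648, 483, 489 and 544 CPM without SMARTA. The highest library with SMARTA, replicate 1, was below the lowest without SMARTA. The mean was 1.67-fold lower with SMARTA (log2 fold change −0.74 ± 0.20 (SE), 95% interval −1.20 to −0.28, edgeR adjusted p = 0.0879), which DESeq2 called at an adjusted p of 0.0187. Without replicate 1 with SMARTA, the log2 fold change was −0.93 and edgeR called it (adjusted p = 0.0336); over the 7 fits that leave out 1 library it ranged from −0.93 to −0.61. Among the libraries with SMARTA, Tkt was highest in replicate 1, where the 7 glycolytic genes named above were lowest.

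G6pdx, the NADPH-yielding entry enzyme, ranged from 89.2 to 142 CPM with SMARTA and from 109 to 159 CPM without SMARTA (log2 fold change −0.049 (95% interval −0.57 to 0.47, edgeR adjusted p = 0.942)). Pgd, the other NADPH-yielding dehydrogenase, ranged from 124 to 176 CPM with SMARTA and from 122 to 219.9 CPM without SMARTA (log2 fold change −0.095 (95% interval −0.64 to 0.45, edgeR adjusted p = 0.883)). Taldo1, the transaldolase that works beside transketolase, was at 480.1, 294 and 378 CPM with SMARTA and at 513, 327, 444 and 373 CPM without SMARTA (log2 fold change −0.11 (95% interval −0.63 to 0.41, edgeR adjusted p = 0.856)). All 3 overlapped between the groups, and their intervals lay within a 2-fold difference either way.

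**Figure D5:**
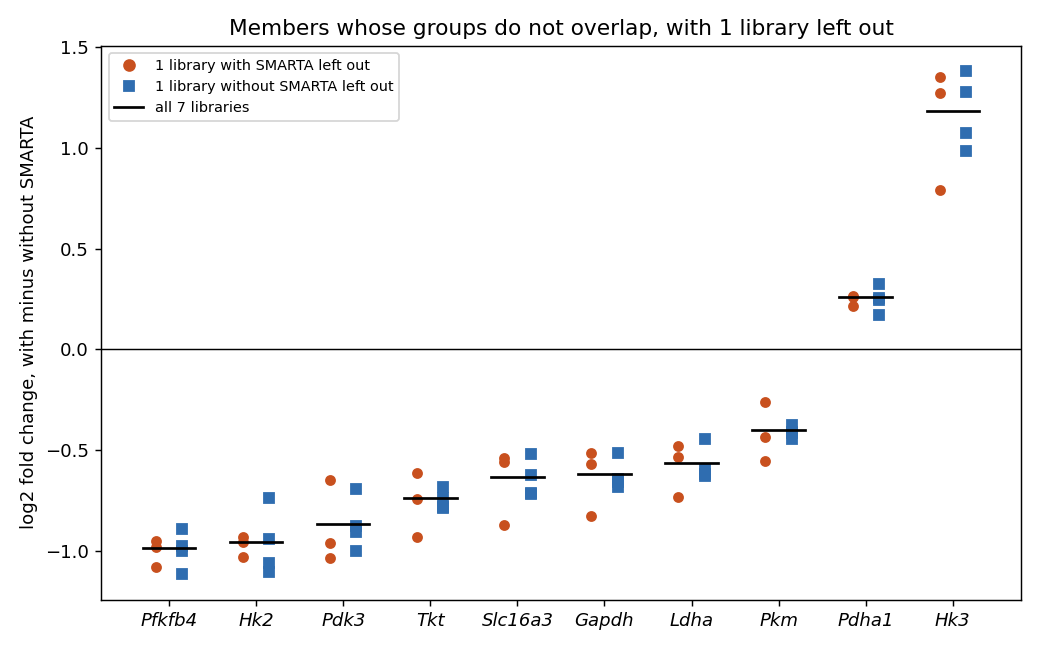
Log2 fold change, with minus without SMARTA, of the 10 members whose groups did not overlap, with all 7 libraries (bar), with 1 library with SMARTA left out (circles) and with 1 library without SMARTA left out (squares). The 8 lower members stay below 0 and Hk3 and Pdha1 stay above 0 in all 7 such fits, a direction that the choice of members without overlap fixes.

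Promoter windows of 4 genes whose groups did not overlap are shown to set their sequence beside their levels: Hk2 and Pfkfb4 with the lowest log2 fold changes among these 8, Tkt with the smallest p, and Ldha with the highest per-length level over the 7 libraries. Each runs from 250 bases before to 50 bases after a gene start, 5′ to 3′ on the gene's strand (RefSeq, build GRCm38.p6). The windows are chr6:82774405-82774704 (minus strand) for Hk2, chr9:108991652-108991951 (plus strand) for Pfkfb4, chr7:46845554-46845853 (plus strand) for Ldha and chr14:30548881-30549180 (plus strand) for Tkt. Capitals mark ACGTG or GCGTG, the core that HIF factors bind, and CACGTG, the E-box that MYC family factors bind, on either strand. CACGTG holds ACGTG on both strands, so each E-box also counts as 2 overlapping cores. Ldha has a second window, chr7:46846832-46847131 (plus strand), which is not shown. It holds 2 cores and 0 E-boxes, where the Ldha window shown holds 7 cores and 2 E-boxes.
Hk2: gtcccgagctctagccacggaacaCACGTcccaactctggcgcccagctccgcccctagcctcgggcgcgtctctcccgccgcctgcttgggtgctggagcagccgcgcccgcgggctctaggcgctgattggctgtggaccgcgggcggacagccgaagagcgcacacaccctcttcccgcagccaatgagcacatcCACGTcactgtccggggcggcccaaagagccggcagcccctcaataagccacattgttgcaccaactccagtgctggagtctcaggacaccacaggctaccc
Pfkfb4: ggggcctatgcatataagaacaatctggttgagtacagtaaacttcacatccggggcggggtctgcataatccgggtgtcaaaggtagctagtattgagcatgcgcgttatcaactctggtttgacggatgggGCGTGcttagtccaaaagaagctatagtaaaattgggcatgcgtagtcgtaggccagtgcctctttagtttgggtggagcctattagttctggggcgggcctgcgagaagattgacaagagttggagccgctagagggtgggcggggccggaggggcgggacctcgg
Ldha: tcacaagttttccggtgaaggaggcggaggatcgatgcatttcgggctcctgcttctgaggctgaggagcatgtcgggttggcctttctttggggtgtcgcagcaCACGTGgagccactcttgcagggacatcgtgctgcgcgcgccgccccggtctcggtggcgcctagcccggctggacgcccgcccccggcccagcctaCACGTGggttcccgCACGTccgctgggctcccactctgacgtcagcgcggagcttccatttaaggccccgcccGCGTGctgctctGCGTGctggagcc
Tkt: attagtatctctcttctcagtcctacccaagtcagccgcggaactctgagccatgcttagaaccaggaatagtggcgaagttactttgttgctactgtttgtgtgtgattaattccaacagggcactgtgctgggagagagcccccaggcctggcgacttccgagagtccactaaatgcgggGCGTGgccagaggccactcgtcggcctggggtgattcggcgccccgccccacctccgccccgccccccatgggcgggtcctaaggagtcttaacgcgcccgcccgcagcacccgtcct

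Of the 35 members 34 had a window, 51 windows in all, and Slc2a3 had none. A core was in 76.5% of the members' windows, against 43.8% of all 32851 windows, and CACGTG was in 11.8%, against 7.15%. All windows came from 27025 genes. Windows of 1 gene can overlap and count the same core more than once, as for Aldoa. Both core sequences hold CG, and the windows were not matched for base composition. Of the 8 genes that were lower without overlap, all 8 had a core in at least 1 window and 1, Ldha, had CACGTG, against 29 and 6 of all 34 members with a window. Counted by window, a core was in 90.0% of the windows of these 8 genes and in 73.2% of those of the other members. A share by gene was not taken over all genes with a window. A match is a description of letters in a window, and these data hold no measurement of binding there.

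Of 53 further genes of the pathway 43 could be tested. With SMARTA 2 were called lower and 0 higher, where 1.63% of all genes were called lower and 1.52% higher. Their median was −0.06 on the log2 scale. Without overlap between the groups, 4 were lower (9.3%, against 10.5% of all genes). In the other direction 6 were higher without overlap, where 8.73% of all genes were. An unadjusted p under 0.05 was reached by 18.6% of them, the same share as over all genes. Eno3, the muscle-type enolase, was at 15.1, 7.18 and 7.29 CPM with SMARTA and at 115, 39.0, 73.3 and 90.9 CPM without SMARTA. All libraries with SMARTA were far below (log2 fold change −3.01 ± 0.46 (SE), 95% interval −4.05 to −1.97, edgeR adjusted p = 0.0184). Gpd2, the mitochondrial glycerol 3-phosphate dehydrogenase that passes electrons from cytosolic NADH to the respiratory chain, was at 42.4, 53.6 and 83.9 CPM with SMARTA and at 279.8, 151, 194 and 183 CPM without SMARTA (log2 fold change −1.75 ± 0.31 (SE), 95% interval −2.46 to −1.05, edgeR adjusted p = 0.029). Each call was lost when some single libraries were left out: Eno3 was called in 3 of 7 such fits (log2 fold change −3.47 to −2.82) and Gpd2 in 2 of 7 (−2.09 to −1.58). For Eno3 the call was lost without replicates 1 or 4 without SMARTA or replicates 2 or 3 with SMARTA, and for Gpd2 without replicates 1, 3 or 4 without SMARTA or replicates 2 or 3 with SMARTA.

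Of 31 regulators of these genes 28 could be tested, with 1 called higher and 0 lower, where 1.52% of all genes were called higher and 1.63% lower. Their median log2 fold change was 0.27. At an unadjusted p under 0.05, 6 were higher and 2 were lower, together 28.6% of those tested, against 18.6% of all genes. Without overlap between the groups, 2 were lower (7.14%, against 10.5% of all genes) and 2 were higher, where 8.73% of all genes were. With so few genes 1 call says little of the list. Txnip, whose product lowers glucose uptake and whose transcription follows glucose phosphates inside the cell, rose with SMARTA. It was at 2965, 1107 and 1548 CPM with SMARTA and at 477, 769.7, 576 and 459 CPM without SMARTA (log2 fold change 1.72 ± 0.34 (SE), 95% interval 0.94 to 2.49, edgeR adjusted p = 0.0406). The call held in 2 of 7 fits that leave out 1 library, those without replicate 1 with SMARTA and without replicate 2 without SMARTA (log2 fold change 1.20 to 1.98 over the 7), and was lost with scaling by library totals (adjusted p = 0.052).

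Myc and Hif1a were named after their values were seen, as the factors whose motifs are marked above. By p, Myc ranked behind Txnip, Rptor and Akt1 among the regulators tested. Rptor was higher with SMARTA without overlap (log2 fold change 1.59, edgeR adjusted p = 0.0539). Akt1 was lower without overlap (log2 fold change −0.90, edgeR adjusted p = 0.0886). Myc was at 201, 184 and 61.6 CPM with SMARTA and at 260.4, 366, 369.9 and 468 CPM without SMARTA, with no overlap (log2 fold change −1.30 ± 0.40 (SE), 95% interval −2.21 to −0.39, edgeR adjusted p = 0.122). DESeq2 called it (adjusted p = 0.0178), as did edgeR with a filter of at least 5 CPM in at least 3 libraries (adjusted p = 0.0484). Hif1a was at 72.3, 437 and 302 CPM with SMARTA and at 122, 277, 209 and 189 CPM without SMARTA, with replicate 1 with SMARTA the lowest of all and replicate 2 with SMARTA the highest (log2 fold change 0.44 (95% interval −0.74 to 1.62, edgeR adjusted p = 0.724)).

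Some of these levels carry a counting limit, since reads that match several genes were left out. Of the windows of 50 bases in a member's transcripts, 53.9% of those of Pgk1 occur in another gene's transcript too, as do 36.2% for Pgam1, 26.0% for Eno1, 25.8% for Pkm and 25.1% for Gapdh. No such window was found for Hk2, Pfkfb4, Pdk3, Slc16a3 or Tkt. Levels of the first 5 are therefore uncertain against other genes, while the comparison between groups uses the same counting in all libraries. Libraries were read without strand, so reads of a gene and of an overlapping partner, such as over 16.1% of the exon bases of Pdha1, could not be assigned to either.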

How the data were processed

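Gene expression was measured by RNA-seq in 7 libraries of sorted OT1 CD8 T cells, 3 with SMARTA and 4 without SMARTA, grouped by their titles. Per the labels' protocols, cDNA was made from 6 to 15 ng of RNA by SMART-seq V4 chemistry, which loses strand, in 12 cycles, with 8 more PCR cycles before paired reads of 50 bases. Per the file headers, the authors' deposited values are raw counts of read pairs per gene name over GENCODE M17 exons, made with featureCounts 1.6.2 without a strand option; its default leaves out reads that match several places or genes. STAR 2.6.0c and build GRCm38.p6 come from the submitters' processing notes. No step named there removes amplification duplicates.

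Counts were tested with edgeR 4.0.16 in R 4.3.3: filterByExpr (minimum count 10, minimum total 15), TMM scaling, a robust quasi-likelihood fit over all genes without covariates, a two-sided test, and Benjamini-Hochberg adjustment over 15896 genes, called under 0.05. Positive log2 fold changes mean higher with SMARTA. Each standard error was derived as the absolute log2 fold change over the root of F. CPM of single genes are TMM-scaled; marker sums use plain library totals. TPM use the exon length in the files, which takes in all annotated exons of a gene, and serve only to compare genes. Rankings by TPM and isozyme shares depend on this length. The common dispersion of 0.28 corresponds to a coefficient of variation of 0.529 between libraries.

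The members, the list of 53 further pathway genes, the 31 regulators, the markers and the tests were chosen with earlier results of these data known. Values in every library were given for called members, for the 3 lowest and 3 highest log2 fold changes and for isozyme sets. They were also given for the most abundant member of each role. Members whose groups did not overlap, Gpi1 and Pgk1 were added after the values were seen. Further genes were named where called, and Myc, Hif1a, Rptor and Akt1 after the values were seen. Alternatives were other scalings and filters, DESeq2 1.42.0, limma-voom (limma 3.58.1), a fit without robust estimation, a block on the replicate number, and leaving out 1 library at a time. The procedure was run on simulated counts with known fold changes, at the common dispersion of these data and at a lower one. Recovery of the known changes was required only at the lower dispersion, so this check does not measure power in these data. No 2 libraries of a group were the same within sampling noise (a chi-square of 93.5 to 444 for each degree of freedom).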

Additional observations from a re-analysis of the deposited data

How the results depend on the processing

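No member was called higher under any of the alternatives run. Members called lower numbered 0 with all libraries, with relative log expression or upper-quartile scaling, without a filter, without robust estimation and with limma-voom. The number was 1 (Tkt) with library totals, with the filter of at least 5 CPM in at least 3 libraries, at an adjusted p under 0.1 and without both libraries that stand apart, and 3 with DESeq2; it was 0 to 1 over the fits without 1 library, the 1 being Tkt without replicate 1 with SMARTA. Over the alternatives the adjusted p ranged from 0.0187 to 0.373 for Tkt, 0.0266 to 0.486 for Hk2, 0.0247 to 0.589 for Pfkfb4, 0.0816 to 0.506 for Hk3 and 0.0178 to 0.481 for Myc. Genes called over all numbered 500, against 842 with that filter, 1741 with DESeq2, 1131 at an adjusted p under 0.1, 1257 without both libraries, and 17 to 907 without 1 library: 907, 37 and 53 without replicates 1, 2 and 3 with SMARTA, and 65, 398, 98 and 17 without replicates 1 to 4 without SMARTA. With library totals 29.1% of called genes were higher with SMARTA, against 48.2% with TMM. The labels do not say that equal replicate numbers pair libraries. Deviations of same-numbered libraries from their group means had correlations of −0.14, 0.03 and −0.27. These were not set beside those of differently numbered libraries, so they cannot settle pairing. With the number as a block, edgeR called 0 genes, with Hk2, Slc16a3 and Tkt under an unadjusted p of 0.05. Eno3, Gpd2 and Txnip then had edgeR adjusted p of 0.326, 0.338 and 0.403. Replicate 4 has no library with SMARTA and adds nothing to this block comparison, which could therefore call few genes.

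Of 34 members 22 kept the sign of their log2 fold change under every alternative run. Gpi1 was −0.016 with upper-quartile scaling, −0.16 with library totals, −0.0096 without a filter, −0.082 with the 5 CPM filter, −0.023 with limma-voom and −0.070 with the block. With library totals Slc2a3 was −0.067 and Pfkl −0.019. Without both libraries Pfkp was 0.055, Pfkfb3 0.078, Pdk2 −0.11 and Tigar −0.32. Over the fits without 1 library, ranges that crossed 0 were Slc2a3 −0.018 to 0.12, Gpi1 −0.26 to 0.17, Pfkp −0.42 to 0.030, Pfkfb3 −0.26 to 0.088, Tigar −0.098 to 0.32, Aldoa −0.075 to 0.32, Aldoc −0.062 to 0.65, G6pdx −0.19 to 0.14, Pgd −0.24 to 0.057, Taldo1 −0.32 to 0.052 and, among regulators, Hif1a −0.089 to 0.88. The cause of these turns was not tested. Depth limits Fbp1, with 0 to 9 counts a library, and Eno2 in replicate 3 without SMARTA, with 2 counts.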
